A study of Cucumis melo with 6 samples.

Results

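The genes described here are those whose transcripts were at least 16 times less abundant in leaves of the melon double mutant lhp1ab than in leaves of wild type (WT), while still being read in the mutant. The genes were chosen by their own counts in these 6 libraries. A gene was included where its mean raw count over the 3 lhp1ab libraries was above 3 and its mean level over the 3 WT libraries was at least 16 times the mean lhp1ab level. Levels are given as CPM, the count of a gene divided by the total of its library and multiplied by 1000000. The rule was met by 116 of the 28299 annotated genes. Because the rule itself compares the genotypes, the size of the difference in these genes is a description of how they were chosen and was not tested.

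LHP1 proteins are chromodomain proteins of plants that bind histone H3 carrying the methyl mark set by Polycomb proteins, a mark found at silent genes. In Arabidopsis, loss of LHP1 leads to small curled leaves and early flowering, and accounts of the protein there centre on genes that it helps to keep silent. The genes here changed in the other direction and lost most of their transcripts.

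RNA was sequenced from melon leaves (Cucumis melo, a Charentais-type cantaloupe) by a strand-specific poly(A) protocol. The mutant group carries chemically induced point mutations, G1970A in Cmlhp1a and C1930T in cmlhp1b, with positions counted in the genomic sequence from the start codon, in the inbred line CharMONO. The WT group is the monoecious line CharMONO itself, in which each plant carries both male flowers and female flowers. There were 3 libraries per genotype, which the series calls biological replicates, and the glasshouse gave all plants long days (16 h at 27 °C, then 8 h dark at 21 °C). The sources used here do not give plant age, plants per library or how many mutant lines were used. Whole leaves were used, so fewer cells of one type and less RNA per cell cannot be told apart.

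The annotation names its 28299 genes by computer-made identifiers without symbols. None of these was found in the reference gene table used here, which holds 28628 genes of another melon assembly. The genes are therefore described by position on release 4.0 of the melon genome, by gene structure and by level, no sequence is shown, and leaf marker genes and the CmLHP1 genes themselves were not looked up. Totals were 15335390 to 17647188 counts per library in lhp1ab and 20551374 to 22366054 in WT. A gene with 0 reads in a library could have had up to 3, which is 0.170 to 0.196 CPM in lhp1ab and 0.134 to 0.146 CPM in WT. Without molecular identifiers on the reads, these limits cover no more than counting error.

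As a group, the 116 genes were ordinary to well expressed leaf genes in WT and were among the weakest expressed genes in the mutant. Their summed level was 350, 348 and 362 CPM in the lhp1ab libraries, against 7768, 7749 and 7568 CPM in the WT libraries. The sums lay close together within a genotype and far apart between genotypes, with means of 353 ± 7.70 CPM in lhp1ab and 7695 ± 110 CPM in WT (SD, n = 3). The genes thus supplied 0.0353% of all counted reads in lhp1ab and 0.770% in WT. No single gene made up this sum, since the 10 most abundant members held 36.8% of the WT total.

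Levels of different genes are compared per kb of exon, since longer genes gather more reads. The median member had 0.900 CPM per kb in lhp1ab (range 0.110 to 25.1) and 21.6 CPM per kb in WT (range 1.97 to 502). Among the 17988 genes tested across the series the medians were 12.02 CPM per kb in lhp1ab and 12.1 in WT. Ranked by level per kb among these tested genes, the median member stood at percentile 6.53 in lhp1ab and at percentile 68.4 in WT. None of the 116 was in the top 10% of tested genes in lhp1ab and 19 were there in WT. Conversely, 6 members were above the median tested gene in lhp1ab and 82 in WT. The rule itself favours high WT levels, because a gene can only meet both limits if its WT level is about 2.90 CPM or more, which held for 14804 genes.

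**Figure D1:**
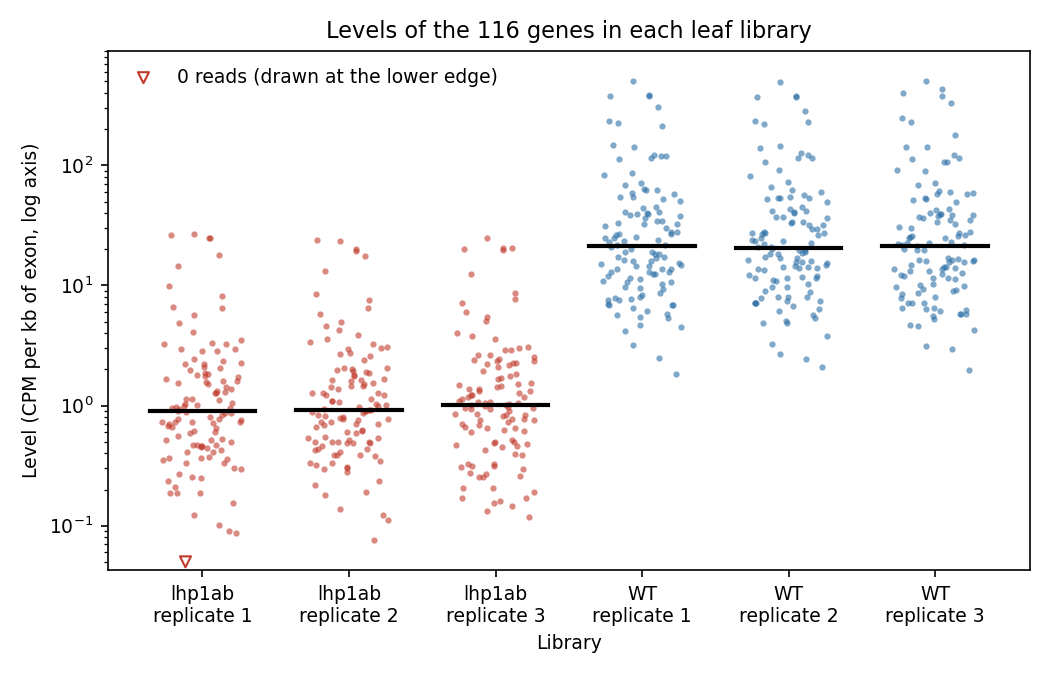
Level of each of the 116 genes in each library, in CPM per kb of exon on a log axis, with lhp1ab libraries in red and WT libraries in blue. Each point is 1 gene, the bar is the median of the library, and the open triangle is the 1 gene with 0 reads in a library. The medians of the 3 lhp1ab libraries lie near 1 CPM per kb and those of the 3 WT libraries near 21. The width of levels is similar in both genotypes, since the rule sets the smallest ratio at 16 and most ratios lie below 32.

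All 116 genes passed the filter on low counts of the fit across all genes, and all 116 were called lower in lhp1ab by edgeR's quasi-likelihood test. Over all tested genes, 38.5% were called lower and 36.9% higher at the adjusted threshold of 0.05. In all 116 genes every lhp1ab library lay below every WT library, which was also the case in 42.1% of tested genes. Both counts follow from the choice of the genes, and nothing is read from them. Fitted log2 fold changes of lhp1ab over WT ran between -6.44 and -3.94, with a median of -4.33, where the median of all tested genes was -0.02. Their standard errors (SE) lay between 0.07 and 0.42, with a median of 0.13.

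Most members sat close to the limit. The ratio of the WT mean to the lhp1ab mean was between 16 and 20 in 49 genes, between 20 and 32 in 58 genes and between 32 and 64 in 8 genes, and 1 gene exceeded 64. The median ratio was 21.1. A stricter reading, the lowest WT library over the highest lhp1ab library, gave a median of 17.1 and a range of 9.64 to 65.3, and reached 16 in 65 of the 116 genes. Just inside the limit lay a gene with a ratio of 16.2 on chromosome 1 (2471926 to 2472888), one with 16.4 on chromosome 2 (5368188 to 5368803) and another with 16.4 on chromosome 1 (4714611 to 4715276). All of these are single-exon genes, and the last 2 are also among the members with the highest WT levels per kb. Just outside lay genes with ratios of 15.9 on chromosome 11 (7131535 to 7136739), 15.9 on chromosome 3 (28438833 to 28443681) and 15.8 on chromosome 6 (32874311 to 32875449). A further 94 genes above the count limit had ratios between 12 and 16, so the members are the end of a continuous range and not a separate class.

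The limit on counts removed genes that may have been as strongly reduced. Just inside it, a 2-exon gene on chromosome 2 (17354064 to 17355194) had 0, 6 and 4 reads in lhp1ab against 88, 68 and 105 in WT. A single-exon gene on the same chromosome (22319516 to 22320537) had 5, 2 and 3 reads in lhp1ab against 95, 81 and 98 in WT. The next, with 2 exons on chromosome 3 (26416623 to 26418520), had 3, 6 and 4 reads in lhp1ab against 91, 91 and 119 in WT. Just outside, a 4-exon gene on chromosome 10 (11851125 to 11860097) had 8, 0 and 1 reads in lhp1ab against 95, 118 and 137 in WT. Likewise outside were a gene on chromosome 3 (27849347 to 27850453) with 2, 7 and 0 reads in lhp1ab against 71, 50 and 66 in WT, and one on chromosome 5 (28298881 to 28299594) with 0, 5 and 4 against 107, 84 and 88. In all, 51 genes met the ratio with a mean of more than 0 but no more than 3 reads in lhp1ab. Another 718 genes had WT reads and none in lhp1ab, and all of these had WT levels below 2.90 CPM.

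**Figure D2:**
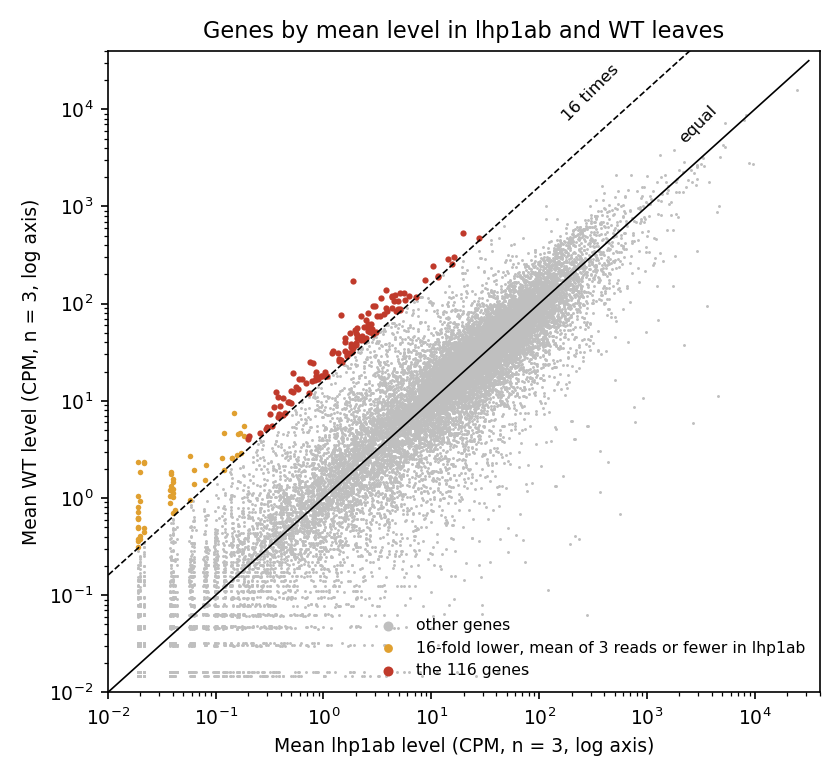
Mean level in lhp1ab against mean level in WT for each gene with reads in both genotypes, in CPM on log axes (n = 3 libraries each). The 116 genes (red) lie above the dashed line of 16 times, the 51 genes in orange meet the ratio with a mean of 3 or fewer lhp1ab reads, and the cloud of other genes (grey) runs on without a gap below the dashed line.

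The members with the highest WT levels per kb were short genes with few exons. This order depends on the division by exonic length. The member with the highest WT level in CPM, at 539, was not among the 6 described here. The highest per kb, maker-Chr1-exonerate_est2genome-gene-304.0, is a 2-exon gene of 571 exonic bases on the plus strand of chromosome 1 (30394617 to 30395268). It had 26.7, 23.5 and 24.9 CPM per kb in lhp1ab, against 503, 495 and 508 in WT. Its libraries of each genotype lay close together, with means of 25.1 ± 1.62 CPM per kb in lhp1ab and 502 ± 6.68 in WT (SD, n = 3), and the fitted log2 fold change was -4.27 (SE 0.08).

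The second highest was a single-exon gene of 757 bases on chromosome 3 (12391607 to 12392363, plus strand), with 24.7, 19.99 and 19.8 CPM per kb in lhp1ab against 389, 375 and 432 in WT. A single-exon gene of 666 bases on chromosome 1 (4714611 to 4715276, minus strand) had 26.1, 24.1 and 19.97 CPM per kb in lhp1ab against 381, 370 and 401 in WT. The 2-exon gene on chromosome 1 from 32996681 to 32999413 (minus strand) had 24.8, 19.4 and 20.7 CPM per kb in lhp1ab against 380, 370 and 379 in WT. In each of these the lhp1ab libraries spread more widely, relative to their mean, than the WT libraries. The remaining 2 of the 6 highest were the single-exon gene on chromosome 2 from 5368188 to 5368803, at 18.7 ± 1.70 CPM per kb in lhp1ab and 306 ± 22.9 in WT, and a single-exon gene of 504 bases on chromosome 1 from 1553212 to 1553715, at 8.48 ± 1.39 in lhp1ab and 239 ± 7.72 in WT (SD, n = 3). All 6 kept over 50 reads in each mutant library, well above the 3 that a count of 0 allows. With 12.02 CPM per kb as the median of tested genes in lhp1ab, 5 of the 6 were still above the typical mutant gene.

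The largest ratio belonged to maker-Chr2-exonerate_est2genome-gene-38.6, a 4-exon gene of 1467 exonic bases on the minus strand of chromosome 2 (3785719 to 3789716). It had 31, 42 and 22 reads in lhp1ab, against 3677, 3826 and 3476 in WT. Its ratio of 91.4 stood apart from the second largest, 52.2, and its lowest WT library was still 65.3 times its highest lhp1ab library. The second largest ratio was that of a single-exon gene on chromosome 3 (27478925 to 27480307, minus strand), with 26, 26 and 21 reads in lhp1ab against 1689, 1525 and 1666 in WT.

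The next 4 by ratio lay between 33.8 and 37.2. A 3-exon gene on chromosome 6 (8340709 to 8343405) had 13, 9 and 4 reads in lhp1ab against 393, 399 and 433 in WT. Its WT libraries were nearly equal after scaling, at 11.5 ± 0.0706 CPM per kb, while the few reads left in lhp1ab spread to 0.308 ± 0.155 CPM per kb (SD, n = 3). A 2-exon gene on chromosome 8 (1882070 to 1884427) had 64, 69 and 55 reads in lhp1ab against 2922, 2854 and 3092 in WT, and its lowest WT library was 35.2 times its highest lhp1ab library. A 7-exon gene on chromosome 6 (31036064 to 31039143) had 5, 8 and 5 reads in lhp1ab against 273, 253 and 248 in WT. A 5-exon gene on chromosome 9 (20928399 to 20933937) had 47, 36 and 28 reads in lhp1ab against 1677, 1466 and 1656 in WT. All 6 genes with the largest ratios lie on the minus strand, although the members as a whole were divided evenly, with 58 on each strand. No test of this was made.

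The lowest remaining levels were near the detection limit. Both of the lowest members are 5-exon genes on the minus strand of chromosome 12. The first (18662689 to 18666492) had 4, 6 and 5 reads in lhp1ab against 103, 120 and 121 in WT, which is 0.110 ± 0.0196 CPM per kb in lhp1ab and 1.97 ± 0.141 in WT (SD, n = 3). The second (18731854 to 18735081) had 5, 6 and 5 reads in lhp1ab against 160, 136 and 171 in WT. They have similar exonic lengths of 2747 and 2452 bases and similar levels. The other 4 of the 6 lowest were already described, namely the 7-exon gene on chromosome 6 (31036064 to 31039143) and the 3 genes just inside the limit on counts. Over all members, 104 had at least 5 reads in every lhp1ab library, 86 at least 10 and 29 at least 50.

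Members varied more between mutant libraries than between WT libraries, and had fewer reads there. The coefficient of variation (CV, the SD over the mean CPM of 3 libraries) of the median member was 17.4% in lhp1ab and 5.04% in WT. A counting value, the inverse square root of the mean read count, had a median of 18.1% in lhp1ab and 3.39% in WT. Under counting alone, a CV taken from only 3 libraries falls below this value more often than above it. The observed CVs and the counting values are therefore not directly comparable. The CV exceeded the counting value in 59 of 116 members in lhp1ab and in 79 in WT, against 67.0% and 60.2% of tested genes. The median counting value of tested genes was 5.50% in lhp1ab and 4.82% in WT, so these shares compare genes of unlike read number. The CV was larger in lhp1ab than in WT in 111 members, and in 63.4% of tested genes, whose lhp1ab and WT levels were similar. Across the 116 members, CV in lhp1ab was lower where the mean read count was higher (Spearman's rho -0.56 across genes, which share the same 3 libraries and are not replicates).

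The most variable members in lhp1ab were those with few reads. The 2-exon gene on chromosome 2 from 17354064 to 17355194, with its 0, 6 and 4 reads, had a CV of 88.8%. A 7-exon gene on chromosome 1 (339525 to 342208) had 5, 5 and 14 reads in lhp1ab against 184, 192 and 226 in WT, so that only replicate 3 stood higher. Another 7-exon gene on chromosome 1 (705414 to 708702) had 9, 2 and 6 reads in lhp1ab against 180, 177 and 194 in WT. A 9-exon gene on chromosome 5 (24365163 to 24371287) had 2, 9 and 8 reads in lhp1ab against 148, 150 and 172 in WT. These patterns differ from gene to gene, and no one mutant library was high in all of them.

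The 4 steadiest members were picked as the smallest of 116 CVs, so their closeness is a description only. A 17-exon gene on chromosome 12 (22217024 to 22222349) had 1.97, 1.97 and 1.93 CPM per kb in lhp1ab against 38.7, 36.9 and 36.7 in WT. A 3-exon gene on chromosome 2 (25076406 to 25080142) had 2.98, 3.00 and 3.07 CPM per kb in lhp1ab against 58.3, 60.1 and 58.0 in WT. In both, the mutant libraries differed by less than read counting alone would give, an SD that 3 values fix only loosely. The 2-exon gene on chromosome 8 from 1882070 to 1884427, described among the largest ratios, was also among the 4 steadiest, with a CV of 4.54% in lhp1ab. A single-exon gene on chromosome 8 (1357237 to 1358258) had the smallest CV, 0.836%, on only 13, 14 and 12 reads.

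In lhp1ab, the library most often highest and the one most often lowest were the same in members and in tested genes, but other shares differed. Replicate 3 was the highest of the 3 lhp1ab libraries in 39.7% of members and in 37.8% of tested genes, and replicate 1 was the lowest in 45.7% of members and in 46.1% of tested genes. In WT, replicate 3 was the lowest in 44.0% of members and in 35.7% of tested genes.

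The low mutant level was also seen in libraries that took no part in the choice. Each library was left out once, the rule was applied to the other 5, and the level in the left-out library was set against the mean of the other 2 of its genotype. The median of this quotient was 0.992, 1.04 and 1.10 for lhp1ab replicates 1, 2 and 3, and 1.02, 0.989 and 0.983 for WT replicates 1, 2 and 3. Set against the mean of the 3 WT libraries, a left-out lhp1ab library still gave a ratio of at least 16 in 93 of 111, 94 of 126 and 92 of 124 chosen genes. The ratio was at least 8 in 111, 126 and 123 of them. Set against the mean of the 3 lhp1ab libraries, a left-out WT library gave at least 16 in 115 of 117, 111 of 116 and 113 of 120. The genes that slipped below 16 were thus far from an equal level in both genotypes, and the smallest such ratio was 6.90. In each ratio the mean of the other genotype came from libraries that took part in the choice. The ratios are therefore only partly independent of it, and in the WT rounds the low mutant mean was chosen. Of the 116 genes, 93 were chosen in all 6 of these rounds.

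**Figure D3:**
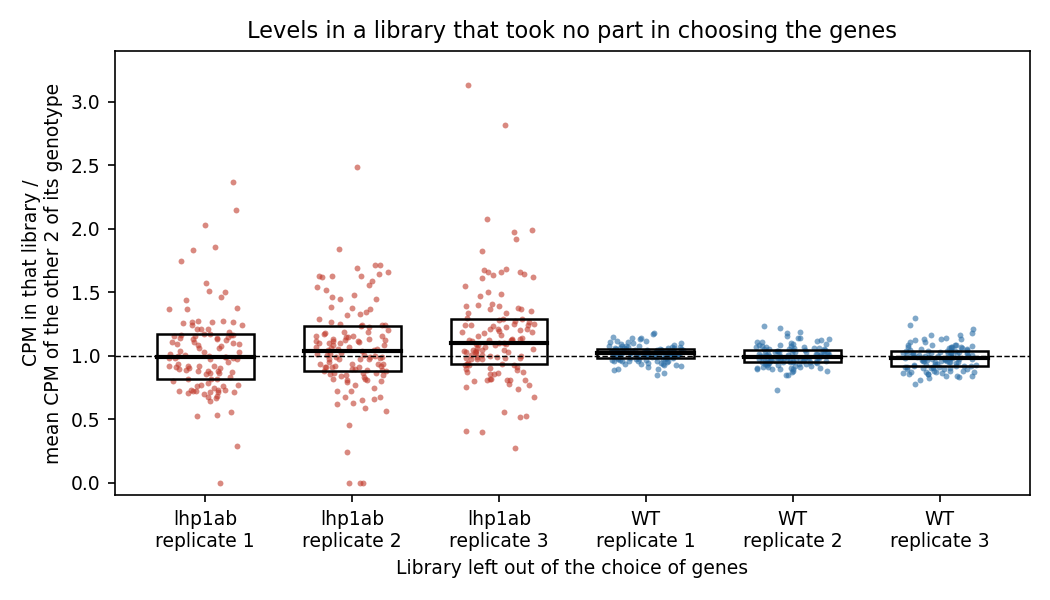
For each library left out of the choice of genes, the level of the chosen genes in that library divided by the mean of the other 2 libraries of its genotype. Points are genes, boxes span the middle 50% of genes with the median as a thick bar, and the dashed line marks equality. The medians lie between 0.983 and 1.10, with a wider spread in the thinly read lhp1ab libraries (red) than in WT (blue).

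Gene structure was not named in the rule, but its limit on raw counts was not scaled by length, so longer genes reach it more easily. The median member had 4 exons and 1589 exonic bases, and the median tested gene had 5 exons and 1601 bases. Single-exon genes made up 24 of the 116 members (20.7%) and 15.5% of tested genes. Among the 14804 genes with a WT level that could meet the rule, the medians were 5 exons and 1718 bases, and 11.6% had 1 exon. Genes with 10 or more exons made up 19 of the members (16.4%), against 19.6% of tested genes and 22.7% of those with the WT level needed. Genes with 20 or more exons made up 4 of the members (3.45%). This share was 2.73% in tested genes and 3.22% in those with the WT level needed. The single-exon share of the members was 16.5% when a mean of more than 10 reads was required in lhp1ab, and it lay below the 26.2% of all annotated genes. No test of these shares was made. Very short genes were rare. Only 1 member (0.862%) had under 500 exonic bases, against 6.80% of tested genes and 3.09% of those with the WT level needed.

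**Figure D4:**
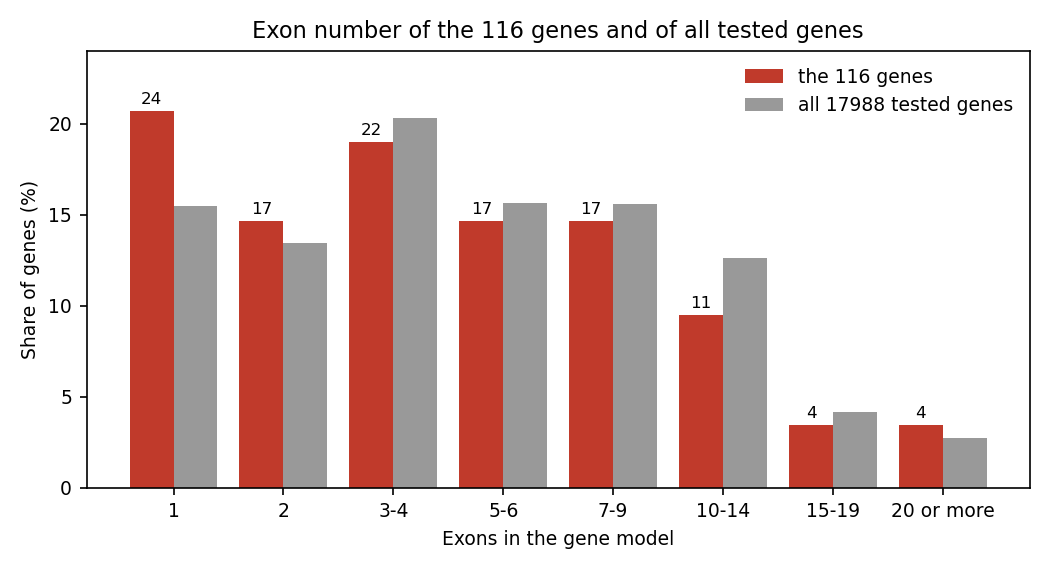
Share of genes by number of exons among the 116 genes (red, with the number of genes above each bar) and among all 17988 tested genes (grey). The red bar is the higher one for genes with 1, 2 and 20 or more exons, and the grey bar elsewhere.

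The ratio, which chose the genes, is given by exon number as a description only, since every member lies above 16. The median ratio was 21.6 in the 24 single-exon members, 21.3 in those with 2 to 9 exons and 19.96 in the 19 members with 10 or more exons. The highest WT levels per kb were found among the genes with fewer exons. These are also shorter, with a median of 955.5 exonic bases at 1 exon and 2904 at 10 or more. The level is divided by this length, and the order by CPM was not compared. WT levels reached 399 CPM per kb among single-exon members and 502 among those with 2 to 9 exons, and stayed between 9.34 and 40.0 in members with 10 or more exons. Ratios reached 52.2, 91.4 and 27.5 in the same 3 classes.

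The 3 members with the most exons had 22 or 24. A 24-exon gene of 4146 exonic bases on chromosome 8 (30624789 to 30631879, plus strand) had 53, 66 and 49 reads in lhp1ab against 1565, 1621 and 1514 in WT. A 22-exon gene on chromosome 11 (14335839 to 14342929, minus strand) had 39, 53 and 38 reads in lhp1ab against 1242, 1333 and 1349 in WT. Another 22-exon gene, of 4646 exonic bases on chromosome 2 (23767848 to 23777323, minus strand), had 68, 90 and 94 reads in lhp1ab against 1826, 1951 and 1700 in WT. The files give 1 count per gene, so how the remaining reads fell on the exons is not known.

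Members were found on all 12 chromosomes. Chromosome 8 held the most, 18 genes or 10.8 per 1000 tested genes (exact 95% binomial interval 6.44 to 17.1), followed by chromosome 1 with 17 and chromosome 6 with 15. Chromosome 4 held 4 genes, or 2.12 per 1000 (0.579 to 5.43), although more genes were tested there than on any other chromosome. The rate over all chromosomes was 6.45 per 1000. It lay outside the interval of chromosome 4 alone, out of 12 intervals looked at, and no test across chromosomes was made. Members lay in stretches with a median of 25 other genes starting within 100 kb (range 4 to 39), where the median tested gene had 22.

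Most members had no other member within 50 kb, a share that was not compared with that of other sets of genes. The start of the nearest other member was a median of 410 kb away, and 14 members (12.1%) had another within 50 kb, as 7 pairs. In 3 pairs no annotated gene lay between the members, and in each of these both genes were on the same strand. On chromosome 6, a 6-exon gene (34232169 to 34233359) with 9, 7 and 7 reads in lhp1ab against 182, 204 and 237 in WT was followed after 182 bases by a single-exon gene (34233542 to 34235799) with 57, 72 and 59 reads in lhp1ab against 1856, 1879 and 1970 in WT. Their ratios of 21.0 and 23.7 were close. Whether these models are parts of 1 transcript was not tested.

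On chromosome 5, an 11-exon gene (25683998 to 25688802) with 24, 43 and 50 reads in lhp1ab against 914, 905 and 894 in WT was followed after 797 bases by a 4-exon gene (25689600 to 25692943) with 11, 17 and 14 reads in lhp1ab against 382, 364 and 403 in WT. On chromosome 1, a 14-exon gene (2249509 to 2253739) and an 18-exon gene (2255644 to 2260250) lay 1.90 kb apart on the minus strand. The first had 15, 21 and 15 reads in lhp1ab against 392, 403 and 454 in WT, and the second 28, 30 and 42 in lhp1ab against 1174, 1204 and 1162 in WT. Their ratios were 19.2 and 27.3.

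In the other 4 pairs, none of the tested genes between was a member. The gene with the highest WT level per kb, on chromosome 1, had a second member 15.1 kb downstream. This was a 4-exon gene (30410328 to 30413590) at 2.40 ± 0.330 CPM per kb in lhp1ab and 43.2 ± 0.764 in WT (SD, n = 3). Of the 4 genes between them, 2 were tested and had fitted log2 fold changes of -1.28 and -0.66, and the other 2 did not pass the filter on low counts. On chromosome 6, members at 31027253 to 31028911 and 31036064 to 31039143 enclosed 2 tested genes at -0.23 and 0.58. On chromosome 7, members at 158722 to 161902 and 192057 to 194319 enclosed 6 tested genes that ranged between -1.17 and 1.30. The last pair, also on chromosome 7 (26179225 to 26182293 and 26200048 to 26200630), enclosed 1 gene at -1.18.

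Genes next to the members moved in both directions. The nearest tested gene on each side that was no member gave 224 genes, of which 101 (45.1%) were called lower in lhp1ab and 84 (37.5%) higher. Among all tested genes that were no members, 38.1% were called lower and 37.2% higher (edgeR's quasi-likelihood test in each case). The median log2 fold change was -0.07 in the neighbours and -0.01 in the tested non-members. At least 4-fold lower were 19 of the neighbours (8.48%) and 4.46% of the tested non-members. Without genes that overlap another, 43.0% of 200 neighbours were called lower and 14 were at least 4-fold lower. This is the same contrast that chose the members, and the difference in shares was not tested.

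By distance the shares were as follows, with no test between them. Of the tested non-members that lay up to 5 kb from a member without overlapping it, 46.2% of 143 were called lower. From 5 to 20 kb this was 40.3% of 325 genes, and from 20 to 50 kb 34.7% of 606 genes. From 50 to 100 kb it was 37.3% of 880 genes, from 100 to 500 kb 38.4% of 4366 genes and beyond 500 kb 38.1% of 11548 genes. In the same order of distance, 33.6%, 36.3%, 42.1%, 40.1%, 37.4% and 36.7% were called higher. A member could also border a gene that rose. On chromosome 7 a gene 0.893 kb from the member at 26179225 (26177466 to 26178332) averaged 258 CPM in lhp1ab and 28.5 CPM in WT. On chromosome 10 a gene at 2545773 to 2547503 averaged 22.0 CPM in lhp1ab and 1.61 CPM in WT, next to a member starting at 2540196.

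**Figure D5:**
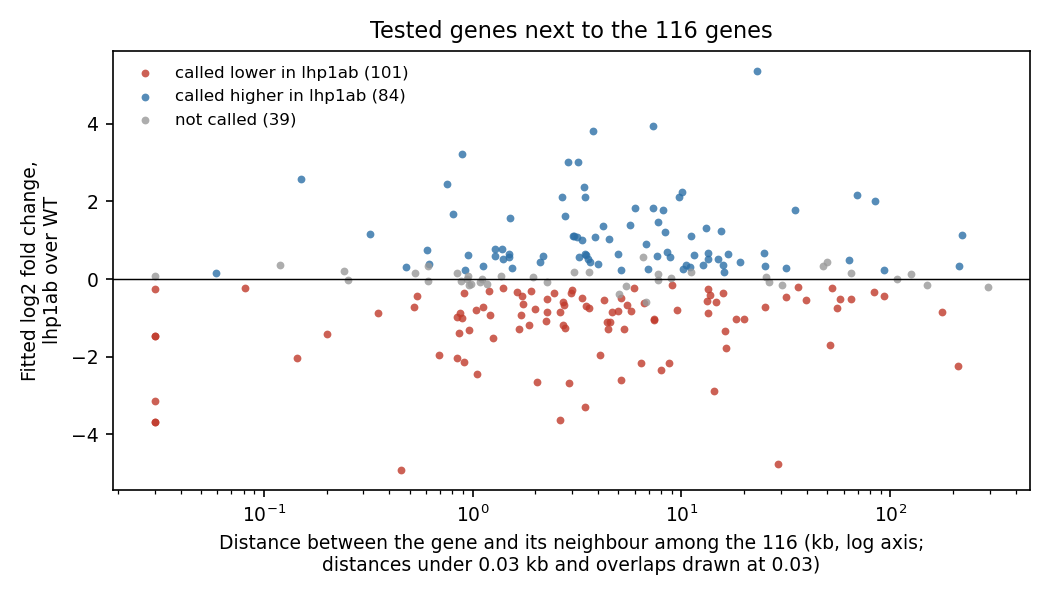
Fitted log2 fold change (lhp1ab over WT) of the 224 tested genes next to the 116 genes, against the distance between them in kb on a log axis. The 101 genes called lower (red) and 84 called higher (blue) are found both near the members and far from them, but no overlapping gene was called higher. The shortest distances are drawn together at the left edge, where the 4 overlapping genes lie between -3.69 and -1.47.

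Few members overlapped another gene, and the overlapping genes were lower as well. No member overlapped a gene on its own strand, where 3.91% of tested genes did, so none shared reads through such an overlap. On the opposite strand 4 members (3.45%) overlapped a gene, against 13.5% of tested genes. Counting was strand-specific, so the reads of each gene were kept apart, and the share of reads assigned to the wrong strand was not tested. All 4 of the overlapping genes were called lower, and none of them was a member.

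On chromosome 11 the partner (19495890 to 19501453) had 42, 55 and 29 reads in lhp1ab against 703, 686 and 771 in WT, and the 2-exon member (19500919 to 19501884) had 209, 201 and 165 in lhp1ab against 3950, 3931 and 4412 in WT. On chromosome 6 the partner (4447674 to 4452415) lay inside the span of the longest member (4446588 to 4453217). It had 4, 15 and 12 reads in lhp1ab against 175, 169 and 192 in WT, and the member had 39, 58 and 56 in lhp1ab against 1037, 1182 and 1051 in WT. On chromosome 5 the partner (25692530 to 25697740) had 39, 41 and 37 reads in lhp1ab against 439, 444 and 490 in WT, more than the member it overlapped by 414 bases. On chromosome 7 the partner (26096429 to 26100213) had 25, 31 and 28 reads in lhp1ab against 99, 111 and 99 in WT, and its log2 fold change of -1.47 was the smallest of the 4.

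Some members had a gene model of like structure close by, with the same number of exons and an exonic length within 2%. This was so for 5 members (4.31%) within 50 kb, against 2.67% of tested genes. No sequences were compared. Multi-mapping reads were allowed, but only at a minimum mapping quality of 30, and how this affected counts of near-identical copies was not tested. On chromosome 7, the single-exon member at 26200048 to 26200630 and the gene at 26203247 to 26203829 both have 583 exonic bases on the plus strand. The member had 7, 10 and 9 reads in lhp1ab against 228, 238 and 327 in WT. Its look-alike had 124, 113 and 99 reads in lhp1ab against 1720, 1496 and 2345 in WT, and its ratio of 12.8 fell short of the limit. In both genes replicate 3 was the highest WT library.

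The other 4 look-alikes were not reduced to the same extent. On chromosome 6, the single-exon member at 34815202 to 34816056 had 47, 58 and 38 reads in lhp1ab against 2012, 2047 and 2021 in WT. A single-exon gene at 34825517 to 34826364 on the same strand had 22, 25 and 26 in lhp1ab against 104, 87 and 84 in WT, with a log2 fold change of -1.50 (SE 0.19). On chromosome 11, the 7-exon member at 17346253 to 17348645 had 47, 41 and 41 reads in lhp1ab against 1056, 1100 and 1212 in WT. The adjoining 7-exon gene at 17349762 to 17353538 had 89, 71 and 66 in lhp1ab against 163, 167 and 169 in WT, a ratio of 1.72. Near the steady 3-exon member on chromosome 2, a 3-exon gene (25055530 to 25058206, opposite strand) had 17.8 CPM per kb in lhp1ab and 15.4 in WT. Near a 3-exon member on chromosome 6 (3864543 to 3866341), with 5, 9 and 5 reads in lhp1ab against 227, 235 and 232 in WT, another such gene (3837274 to 3839289) had 15.7 CPM per kb in lhp1ab and 16.0 in WT.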

How the data were processed

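The deposited values are raw counts, 1 per gene and library, from featureCounts 1.6.4. According to the header lines, exons were summed by gene, on the reverse strand, at a minimum mapping quality of 30, with multi-mapping reads allowed and reads over several genes counted for each. The annotation is a liftover onto melon genome release 4.0. The submitters' processing notes also name Trimmomatic 0.38, R 3.5.1, DESeq2 and STAR, without a version for the last 2. Counts were scaled here to CPM by library totals and divided by exonic length in kb. All genes were fitted with edgeR 4.0.16 (quasi-likelihood test, TMM, default low-count filter, no covariates, Benjamini-Hochberg threshold 0.05) in R 4.3.3, with DESeq2 1.42.0 and limma 3.58.1 as alternatives. SE is the fold change over the square root of F. Replicates of a genotype differed beyond counting noise (chi-square per degree of freedom 3.53 to 11.8 in lhp1ab and 2.17 to 6.78 in WT). No source used here says whether they are separate plants, so the tests measure the spread between these samples.

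The members and lists were chosen with earlier results of these data known. Named are the 6 members with the highest WT level per kb, the 6 with the largest ratio, the 6 with the lowest lhp1ab level per kb, the longest, those with the most exons, the most and least variable in lhp1ab, those next to the limits, and pairs within 50 kb. The rule allowed 4 groups of near members, and since all 7 held 2 genes, all are given. The genes next to members, overlapping genes and look-alikes that are named were chosen after their values were seen. Gene lists and cell type markers could not be matched for want of gene names.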

Additional observations from a re-analysis of the deposited data

How the results depend on the processing

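The number of members stayed between 91 and 167 with TMM (110) or RLE scaling (108), thinned libraries (120), medians in place of means (112), a limit above 10 reads (91) or above 0 (167), and between 111 and 126 with 1 library left out. All members under TMM and under RLE scaling were among the 116. An 8-fold limit gave 367 genes and a 32-fold limit 9, looser and tighter versions of the same rule, and asking for 16 times between the lowest WT and the highest lhp1ab library gave 65. All 116 were called lower in each of the 12 other fits, which called 6304 to 7300 genes lower in all. This count of members follows from their choice, and nothing is read from it. The replicate numbers did not pair the genotypes, since libraries with the same number had deviations that correlated at 0.00060, 0.12 and -0.18 and 1 of 6 libraries correlated best with its own number. With the replicate block 6783 genes were called lower, against 6933 without it. The median log2 ratio of -4.40 became -4.34 with TMM, -4.31 with RLE and -4.33 as fitted, and lay between -4.45 and -4.38 with a library left out. Under the 32-fold limit the median exon number was 2. Against all annotated genes the background was 3 exons, 1161 bases and 26.2% single-exon genes, so the members' 20.7% was then the smaller share, and with the WT level needed it was 1718 bases and 11.6%. With the 8-fold limit 81 genes (22.1%) had another within 50 kb and with the 32-fold limit 0. Using genes with the WT level needed, leaving out overlapping neighbours, and leaving out libraries for structure, distance and neighbours were chosen after seeing the data. Depth limits the members with fewer than 10 reads in a mutant library.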
